A study of Homo sapiens with 4 samples.

Results

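Peaks near chromosome ends were the H3K27ac peaks whose midpoint lay in the first or last 5 Mb of chromosomes 1 to 22, measured on the chromosome lengths of hg38. They numbered 5316 of 65118 peaks in the daunorubicin library and 3856 of 38626 in the untreated library, or 9172 of 103744 over both lists. The study profiled H3K27ac by ChIP-seq in K562, an established human line from chronic myeloid leukaemia in blast crisis. One library came from cells given 1 uM daunorubicin, an anthracycline and topoisomerase II poison, for 18 h, and 1 library from untreated cells. An input library, made with no antibody, accompanied each of them. Every condition stood for 1 library, so no difference below has a replicate check or a p-value, and all comparisons are between these 2 libraries. Intervals on shares, ratios and medians are at 95% and cover counting error only, and neighbouring peaks share a locus.

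H3K27ac, acetylation of lysine 27 on histone H3, is laid down by the acetyltransferases EP300 and CREBBP and marks active promoters and enhancers. Human chromosomes end in telomere repeats, next to which lie blocks of sequence copied between chromosomes, and the broad bands near many ends are rich in genes, in GC bases and in unmethylated CpG islands. The copied blocks hold families such as the olfactory receptor OR4F genes and DUX4, whereas the bands further in hold the alpha-globin cluster on the short arm of chromosome 16 and the granule protease cluster on the short arm of chromosome 19.

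The following promoters near chromosome ends show what such sites look like. Each had a peak in 1 library over at least 100 of the 250 bases before the start of the gene and no peak of the other library within 5 kb, and each was among the 2 highest-scoring of its class. They were chosen after their values were seen. The sequences are the reference sequences of RefSeq (GRCh38.p14), read on the strand of the gene, and capitals mark every CpG. The promoters of KLHL30, a kelch-family protein (chr2:238138418-238138667, plus strand), and AHNAK2, a very large protein related to AHNAK (chr14:104978375-104978624, minus strand), had a peak only in untreated cells. The promoters of CPXM1, a member of the carboxypeptidase family (chr20:2800628-2800877, minus strand), and SHD, an SH2-domain adaptor (chr19:4279016-4279265, plus strand), had one only with daunorubicin. The start of SHD is that of its promoter window. The gene positions used elsewhere begin SHD at chr19:4279069, inside the printed bases and before its peak.
KLHL30: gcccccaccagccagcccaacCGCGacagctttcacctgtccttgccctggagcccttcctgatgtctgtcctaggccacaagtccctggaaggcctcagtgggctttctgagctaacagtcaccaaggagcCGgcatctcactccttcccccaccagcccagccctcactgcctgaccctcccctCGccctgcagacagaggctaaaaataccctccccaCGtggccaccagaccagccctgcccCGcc
AHNAK2: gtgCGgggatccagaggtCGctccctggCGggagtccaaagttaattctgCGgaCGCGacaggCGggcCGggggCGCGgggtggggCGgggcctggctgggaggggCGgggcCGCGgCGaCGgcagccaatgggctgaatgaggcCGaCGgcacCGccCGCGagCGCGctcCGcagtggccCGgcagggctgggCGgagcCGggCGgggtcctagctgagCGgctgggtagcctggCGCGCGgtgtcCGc
CPXM1: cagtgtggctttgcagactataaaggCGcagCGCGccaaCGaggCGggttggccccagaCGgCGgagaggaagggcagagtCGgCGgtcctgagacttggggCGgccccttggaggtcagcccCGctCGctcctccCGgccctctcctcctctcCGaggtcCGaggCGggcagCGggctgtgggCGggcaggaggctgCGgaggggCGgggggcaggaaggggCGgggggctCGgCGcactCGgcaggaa
SHD: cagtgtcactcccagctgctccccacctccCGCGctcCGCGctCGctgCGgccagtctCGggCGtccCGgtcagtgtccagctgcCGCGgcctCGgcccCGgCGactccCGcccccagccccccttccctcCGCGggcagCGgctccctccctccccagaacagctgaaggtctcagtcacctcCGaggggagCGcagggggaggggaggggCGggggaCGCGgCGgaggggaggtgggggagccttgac
KLHL30 had 6 CpG in these 250 bases, AHNAK2 33, and CPXM1 and SHD 24 each. Of 33725 promoters of all gene types on chromosomes 1 to 22, 61.8% held at least 6, 23.9% at least 24 and 8.27% at least 33. Both classes thus included a promoter dense in CpG. The untreated peak over KLHL30 spanned 956 bp with a score of 47 and that over AHNAK2 1162 bp with a score of 42. The daunorubicin peak over CPXM1 spanned 405 bp with a score of 61 and that over SHD 393 bp with a score of 34. Scores are the authors' own, given per peak, and scores of the 2 lists may differ in scale, so they describe peaks within a list.

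Promoters near ends were richer in CpG than inner ones. Their median was 15 CpG in the 250 bases before the start and 64.7% GC in the 300-base window, over 4175 promoters, against 10 CpG and 57.7% GC over 29550 inner promoters. The telomere repeat motif TTAGGG, read on both strands (TTAGGG or CCCTAA), occurred in 7.52% of these 300-base windows near ends (6.76 to 8.36) and in 9.34% of inner windows (9.01 to 9.68).

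Both libraries were denser in peaks near the ends, the untreated library more so. Over the 39 chromosome ends that held peaks, of 44, the daunorubicin library had 27.3 peaks per Mb near ends and 21.5 per Mb inside, 1.27 times as many. The untreated library had 19.8 and 12.5, 1.58 times as many. The 5 ends without peaks were the short arms of chromosomes 13, 14, 15, 21 and 22. With these counted as ends, the densities were 24.2 and 21.7 per Mb with daunorubicin, a ratio of 1.11, and 17.5 and 12.6 per Mb in untreated cells, a ratio of 1.39. Inner lengths also include assembly gaps. Peaks near ends made up 8.43% of the daunorubicin list and 10.3% of the untreated list on chromosomes 1 to 22.

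Peaks near ends lay at genes more often than inner peaks did. A peak counts as at a gene end if it lies no more than 1 kb from the annotated start or end of any gene, which can be a promoter or a 3' end. With daunorubicin 41.8% of peaks near ends lay at a gene end (40.4 to 43.1), against 27.2% of inner peaks. In untreated cells the shares were 47.6% near ends (46.0 to 49.1) and 35.9% inside. Promoter windows carried 23.3% of daunorubicin peaks near ends and 31.1% of untreated ones, and gene bodies 42.4% and 39.2%. No promoter window was available on chromosome 8, so all peaks there count as off such windows. The median peak near ends was 762 bp wide with daunorubicin, against 731 bp inside, and 882.5 bp wide in untreated cells, against 784 bp inside. The median daunorubicin score was 50 near ends and 40 inside, and the median untreated score 60 near ends and 41 inside. Peaks near ends therefore had higher scores than inner ones in both lists, which is why inner peaks were matched below on score and on location at a gene end.

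No H3K27ac peak near an end overlapped an input peak, and each input list had 2 peaks there. Peaks lay within 1 kb of 9 of 10 erythroid and progenitor marker genes with daunorubicin and of 8 without it. They also lay at all 6 marker genes of T cells, B cells, liver, epithelium and fibroblasts in both libraries, so the peak calls do not tell the cell type apart. Read depth is unknown, and the number of peaks called moves with depth and enrichment, so each ratio at the ends is set beside the inner ratio of the same 2 lists.

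The first comparison asked how the number of peaks differed between daunorubicin and untreated cells near the ends and elsewhere. Near the ends the daunorubicin library had 1.38 times the peaks of the untreated library, against 1.72 times inside (57709 and 33511 peaks). The ratio of these ratios was 0.801. Peaks near ends covered 4706 kb with daunorubicin and 3816 kb without it, a ratio of 1.23, against 1.63 inside. Mean width near ends was 0.895 times that in untreated cells, against 0.947 inside.

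The lower ratio was found at most chromosome ends but was not uniform. In 33 of 39 arms it lay below the inner 1.72. Its upper bound lay below that value in 16 arms, and in 0 arms did its lower bound lie above it. The lowest ratio, 1.04 (0.615 to 1.75), was at 2p with 28 daunorubicin and 27 untreated peaks. The end of 22q had 89 daunorubicin peaks and 84 untreated ones, a ratio of 1.06 (0.787 to 1.43). The end of 5p had 45 and 41 (1.10). The end of 1p had 133 and 119 peaks (1.12), and that of 10q 58 and 51 (1.14). The 2 ends with most peaks were 19p, with 360 and 293 (1.23, 1.05 to 1.43), and 16p, with 286 and 233 (1.23, 1.03 to 1.46). At the other side, 4q had 58 and 28 peaks (2.07, 1.32 to 3.24) and 10p 95 and 52 (1.83). Next came 9p with 62 and 34 (1.82), 11q with 18 and 10 (1.80) and 20p with 198 and 111 (1.78, 1.41 to 2.25). The ends of 5p and 10q had less covered length with daunorubicin than without it, with ratios of 0.941 and 0.960. Both ends of 1 chromosome could lie far apart: 10q had a ratio of 1.14 and 10p 1.83.

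**Figure D1:**
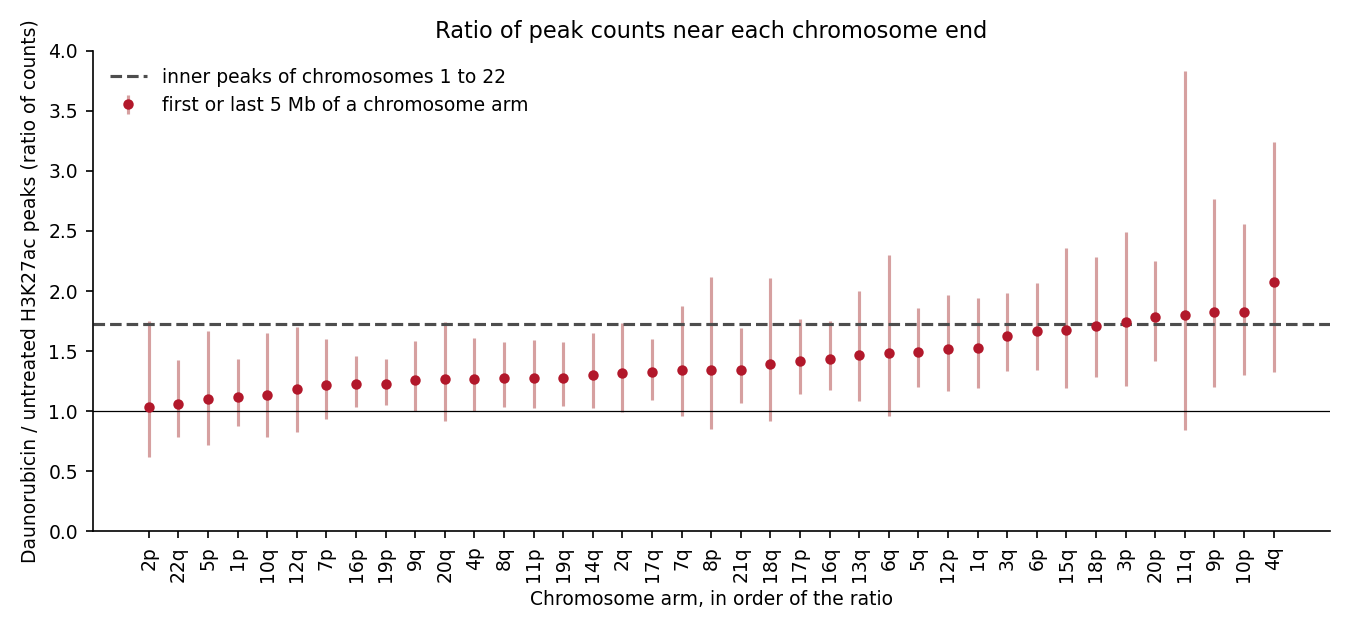
Ratio of the number of daunorubicin peaks to the number of untreated peaks in the first or last 5 Mb of each of 39 chromosome arms, in order of the ratio. Bars are 95% intervals from the binomial share of the counts (counting error only), the dashed line is the inner ratio of 1.72 and the thin line marks equal numbers. The ratio lay below the dashed line in 33 arms.

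Inner stretches of the same length gave a measure of how far the ratio varied along chromosomes. Over the 30 ends with at least 50 untreated peaks the median ratio was 1.32 (quartiles 1.26 and 1.51), with a lowest value of 1.06 and a highest of 1.83. Over 274 inner 5 Mb stretches with as many untreated peaks it was 1.74 (1.59 and 1.90), with a lowest value of 1.19 and a highest of 2.48. Ratios under 1.3 occurred at 13 of the 30 ends and in 5 of the 274 inner stretches. The median of the ends lay above only 1.82% of inner stretches. Inner stretches were not matched on gene number or gene-end location, and those of chromosome 19 had ratios of 1.19 to 1.46. Across the 39 arms, which share both libraries and differ in base composition, the ratio was lower where more untreated peaks lay at gene ends (Spearman's rho -0.49, Pearson's r -0.44) and where more protein-coding genes lay in the 5 Mb (rho -0.39, r -0.38). Without 19p and 16p, the arms with gene numbers farthest from the median, the second r was -0.35. These correlations are descriptions.

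**Figure D2:**
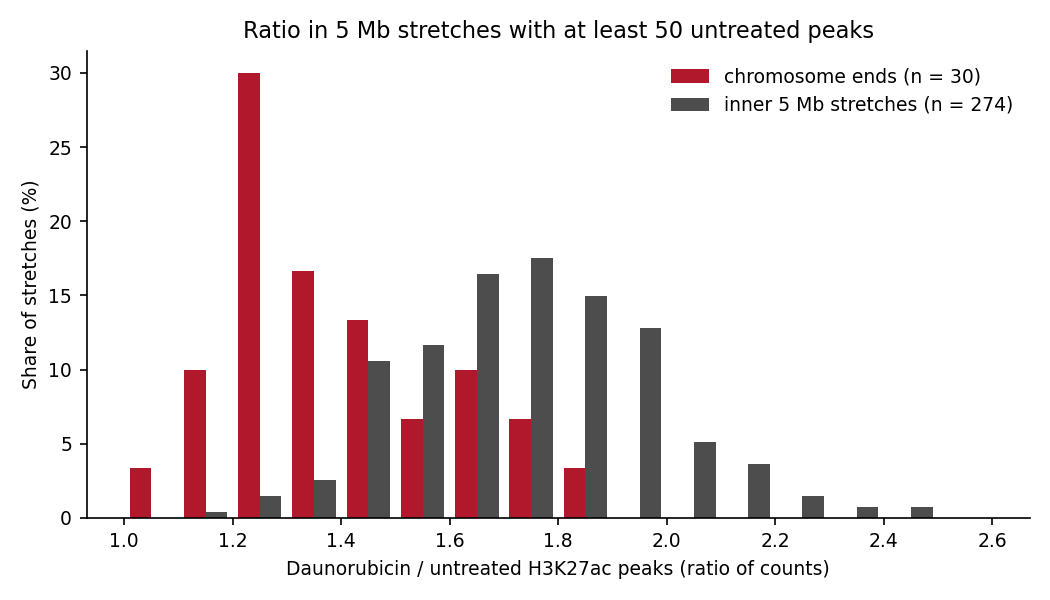
Distribution of the ratio of daunorubicin to untreated peak counts over 30 chromosome ends (red) and 274 inner stretches of 5 Mb (grey), all with at least 50 untreated peaks; the y axis is the share of stretches in percent. The ends have a median of 1.32 and the inner stretches one of 1.74.

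The second comparison asked how many untreated peaks had no overlapping daunorubicin peak. Near the ends these were 495 of 3856, or 12.8% (11.8 to 13.9), where 10.7% of all untreated peaks on chromosomes 1 to 22 had none. Inner peaks of the same untreated score bin and location had none in 8.15%, which corresponds to 314 peaks. The share near ends was 4.69 percentage points higher, or 1.58 times the matched share. Without matching the inner share was 10.5%, matched on score alone it was 8.20%, and matched on location alone 9.21%. The excess was found at gene ends, 5.67% against a matched 2.995%, and away from them, 19.3% against 12.8%. Away from gene ends the share was 20.3% in gene bodies and 16.4% between genes. Inner peaks away from gene ends of like score, with both classes pooled, had 13.3% and 11.4%.

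The excess was found over most of the range of scores. Among untreated peaks with scores of 10 to 16, 46.4% near ends and 35.5% inside had no daunorubicin peak. At scores of 33 to 42 the shares were 15.6% and 8.11%, and at 59 to 92 they were 3.83% and 1.40%. At scores of 158 to 246 they were 1 of 505 peaks near ends (0.198%, 0.0350 to 1.11) and 2 of 3249 inside (0.0616%, 0.0169 to 0.224), which overlap. At scores of 247 to 876 they were 0 of 514 and 0 of 3225 peaks, and 3 counts, the limit that a count of 0 allows, would be 0.584% and 0.0930%.

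**Figure D3:**
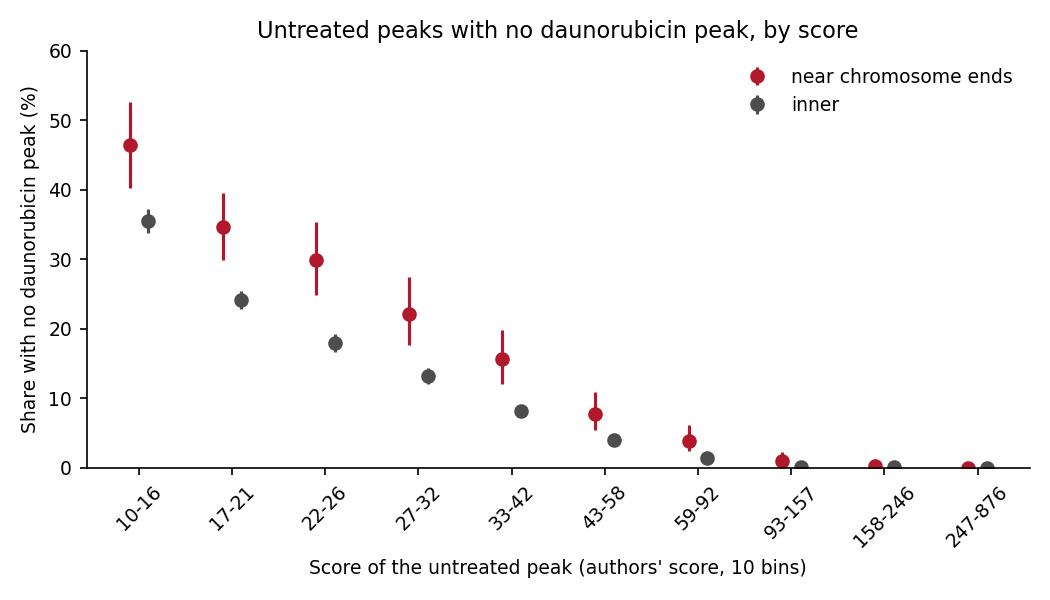
Share of untreated peaks with no overlapping daunorubicin peak (percent) in 10 bins of the untreated score, near chromosome ends (red) and inside (grey), with 95% Wilson intervals. The red points lie above the grey ones at 46.4% and 35.5% in the lowest bin, and both come down to 0 in the highest.

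In 31 of 39 arms the share exceeded the matched inner share. At 10q 13 of 51 untreated peaks had no daunorubicin peak, 25.5% (15.5 to 38.9), against a matched 9.95%. At 12q it was 12 of 54, 22.2% (13.2 to 34.9), against 7.22%. The gene-rich end of 19p had 43 of 293, 14.7% (11.1 to 19.2), against 6.23%, and 9q had 21 of 131, 16.03% (10.7 to 23.3), against 7.32%. The end of 6p had 10 of 133, 7.52% (4.14 to 13.3), against a matched 11.03%, and that of 9p 2 of 34, 5.88% (1.63 to 19.1), against 15.8%.

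The third comparison asked the converse, how many daunorubicin peaks had no untreated peak. Near the ends these were 1829 of 5316, or 34.4% (33.1 to 35.7), where 46.3% of all daunorubicin peaks on chromosomes 1 to 22 had none. Inner peaks of the same daunorubicin score bin and location had none in 40.3%, so the share near ends was lower by 5.91 points. On promoter windows the share was 4.60% near ends and 8.33% at inner promoter peaks of like score. Away from gene ends the share was 47.6% near ends and 54.1% at matched inner peaks. It was 46.7% in gene bodies near ends, and between genes 420 of 840 peaks near ends had no untreated peak. Inner peaks away from gene ends of like score, with both classes pooled, had 55.7% and 49.9%. Gene bodies and intergenic peaks were thus not each set beside their own class. In 32 of 39 arms the share lay below the matched one. After merging overlapping peaks, there were 3.69 regions called only with daunorubicin near ends for each called only without it (1829 and 495), against 7.81 inside (27365 and 3502).

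Both departures were found in each of the 5 bands of 1 Mb nearest the ends, without a steady order among them. They went on from 5 to 10 Mb. The matched shares come from all peaks beyond 5 Mb, so the departures of the bands beyond 5 Mb must balance out. The small or opposite departures beyond 20 Mb are therefore not a separate result. In the outermost Mb 31.5% of daunorubicin peaks had no untreated peak, against a matched 37.3%. The shares were 26.7% and 36.8% from 1 to 2 Mb, where they lay furthest apart, 34.9% and 41.1% from 2 to 3 Mb, 39.0% and 42.2% from 3 to 4 Mb, and 41.1% and 44.99% from 4 to 5 Mb. From 5 to 10 Mb they were 41.2% and 44.6%, and beyond 40 Mb 48.6% and 48.0%. Of untreated peaks in the outermost Mb, 12.4% had no daunorubicin peak, against a matched 6.999%. The shares were 13.3% and 7.41% from 1 to 2 Mb, 11.8% and 7.996% from 2 to 3 Mb, 14.9% and 8.90% from 3 to 4 Mb, where they lay furthest apart, and 11.8% and 9.97% from 4 to 5 Mb. The interval from 4 to 5 Mb, 9.63 to 14.4, included the matched share. From 5 to 10 Mb the shares were 11.1% and 9.16%, and beyond 40 Mb 10.2% and 10.8%. The boundary at 5 Mb was not a step: just inside it, from 4.5 to 5 Mb, 42 of 379 untreated peaks (11.1%) had no daunorubicin peak, and just outside, from 5 to 5.5 Mb, 32 of 295 (10.8%). For daunorubicin peaks the shares were 40.4% (230 of 570) and 37.2% (163 of 438).

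**Figure D4:**
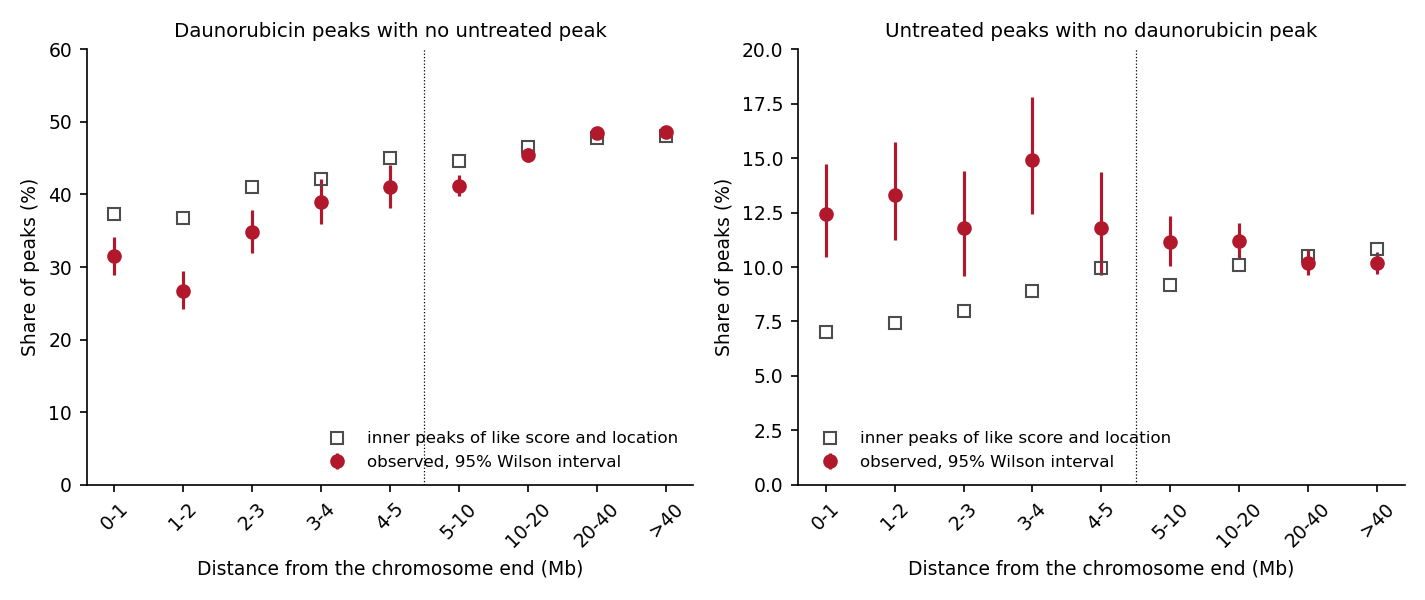
Share of peaks with no overlapping peak in the other library (percent) by distance of the peak from the nearest chromosome end (Mb), for daunorubicin peaks (left) and untreated peaks (right). Filled points are observed shares with 95% Wilson intervals, and the dotted line marks 5 Mb. Open squares are the shares of inner peaks of like score and location. They come from all peaks beyond 5 Mb, so to the right of the dotted line they include the peaks of the band itself. Near the ends the filled points lie below the squares on the left and above them on the right, by 31.5% against 37.3% and 12.4% against 6.999% in the outermost Mb.

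Untreated peaks that did have a daunorubicin peak were covered less by it near the ends. Daunorubicin peaks covered 85.6% of the base pairs of the 3361 shared untreated peaks near ends, against 89.8% at matched shared inner peaks. Over all untreated peaks, the unshared ones included, the shares were 80.8% and 86.7%. The daunorubicin score over the shared peaks was set beside the median daunorubicin score at inner peaks of like untreated score and location. The median of this log2 relative score was -0.21 (-0.24 to -0.18), with quartiles of -0.69 and 0.23, and 2047 peaks (60.9%) lay below 0. At gene ends the median was -0.23 over 1730 peaks and elsewhere -0.18 over 1631. It was below 0 in 32 of 39 arms. The low values were -0.55 at 5p, -0.54 at 10q and -0.44 at 9q, and the high ones 0.20 at 18p, 0.16 at 4q and 0.14 at 6p.

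Promoter peaks near ends lay in windows richer in GC than inner promoter peaks did. Untreated peaks on promoter windows had a median window GC of 71.3% near ends, over 1199 peaks, and of 65.7% inside, over 7949. Of the 1199 peaks, 2.59% had no daunorubicin peak, against 0.883% of inner promoter peaks of like score. Matched also on promoter GC the shares were 2.51% (30 of 1197) and 1.06%, and the log2 relative score was -0.15 in place of -0.21. GC outside promoter windows was not analysed here, and its part in the other results was not tested.

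At promoters of protein-coding genes, those called only in untreated cells outnumbered those called only with daunorubicin near the ends but not inside. Of 1842 such promoters near ends, 1011 had a peak in both libraries, 39 only with daunorubicin, 58 only without it and 734 in neither. Inside, 520 promoters had one only with daunorubicin and 200 only without it. Of promoters with a daunorubicin peak, 3.71% near ends had no untreated one (2.73 to 5.04), against 6.79% inside (6.25 to 7.38) and 6.42% overall. Of promoters with an untreated peak, 5.43% near ends had no daunorubicin peak (4.22 to 6.95), against 2.73% inside (2.38 to 3.12) and 3.07% overall. Most of the 58 had a daunorubicin peak nearby, within 1 kb of all but 13 and within 5 kb of all but 8. Of the 39, 24 had no untreated peak within 1 kb and 22 none within 5 kb.

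The fourth comparison measured the marked length of each protein-coding gene, the number of bases under peaks no more than 50 kb from its start or its end, and gives daunorubicin minus untreated. Neighbouring genes share windows, so that a single peak may enter the value of several of them. Of 2530 genes near ends, 2216 were marked in either library. Their median marked length was 6152 bp with daunorubicin, against 5458.5 bp without it, and the median difference 405 bp (369 to 459). For 14701 marked inner genes the medians were 6022 bp and 4033 bp, and the median difference 1434 bp. Marked length was shorter with daunorubicin at 740 genes near ends, 33.4% (31.5 to 35.4), against 9.56% of inner genes and 12.7% of all. It was longer at 1476 genes near ends, 66.6%, against 87.3% of all. Set beside inner genes of like untreated marked length, the share of shorter genes was 33.4% against 10.2%. With equal numbers of top-scoring peaks from both lists the shift between the classes stayed, but the median near ends was -258.5 bp and that of inner genes 477 bp, so 1297 of 2176 genes near ends were then shorter with daunorubicin.

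**Figure D5:**
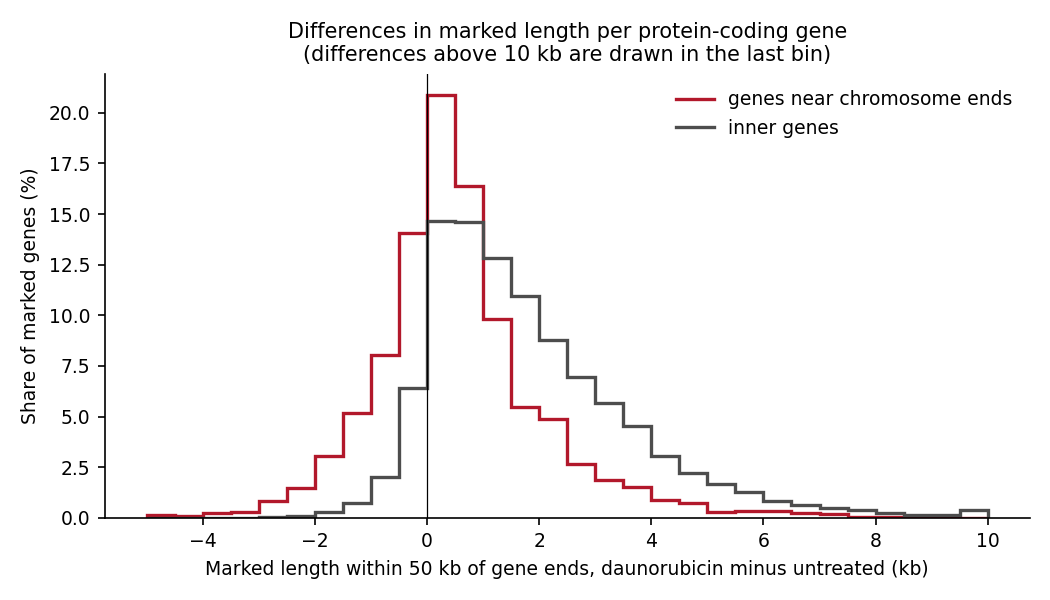
Distribution of the difference in marked length per protein-coding gene, daunorubicin minus untreated (kb), for 2216 genes near chromosome ends (red) and 14701 inner genes (grey); the y axis is the share of genes in percent. Genes near ends lie further to the left, with 33.4% below 0 against 9.56%.

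Genes near ends made up most of the largest losses and few of the largest gains. Among all marked protein-coding genes, 13.1% lay near an end. Of the 100 genes with the largest loss of marked length 78 did, and of the 500 with the largest loss 290 did (58.0%). Of the 100 with the largest gain 1 did, and of the 500 with the largest gain 20 did. The 78 were spread over several ends, led by 9q with 17 genes, 19p with 15, 8q with 11, 16p with 10 and 17q with 6. They are not 78 separate sites, since neighbours share peaks. The count among the 100 largest losses was 54 with equal numbers of top-scoring peaks, 61 under the stricter score, 43 in windows of 10 kb and 91 in windows of 100 kb.

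Among the genes of the largest losses, named by the rule given under the processing, those described here had peaks that were narrower or not called with daunorubicin beside others that were shared. MATK, a tyrosine kinase of blood cells that phosphorylates Src-family kinases, lies 3790 kb from the end of 19p and had 3743 marked bp with daunorubicin, against 7047 bp without it. Its span carried 1 peak in each library, of 690 bp with daunorubicin and of 1111 bp in untreated cells. Of the 8 untreated peaks around MATK, 4 had no daunorubicin peak, all outside the gene and of scores 17 to 31. Of the 5 daunorubicin peaks 1 had no untreated peak.

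UTF1, a transcription factor of embryonic stem cells, lies 567 kb from the end of 10q and had 2453 bp against 5521 bp. An untreated peak of 841 bp (chr10:133224891-133225731, score 43), 4486 bp below UTF1, had no daunorubicin peak. Above the gene, a peak of 726 bp with daunorubicin lay within one of 1435 bp in untreated cells, and a peak of 949 bp within one of 1797 bp. Neither library had a peak on the promoter window of UTF1. GRAMD4, a GRAM-domain protein on 22q, had 4174 bp and 6845 bp. The peak within GRAMD4 at chr22:46603160-46604750 with daunorubicin and at chr22:46602883-46604628 in untreated cells was of like width, 1591 bp and 1746 bp. Of the 10 untreated peaks around GRAMD4 6 had no daunorubicin peak, with scores of 15 to 100. KLHL30 on 2q, whose promoter is printed above, had 2505 bp and 5279 bp, and 4 of its 9 untreated peaks had no daunorubicin peak.

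The losses also included ZNF598, an E3 ligase that acts on collided ribosomes, with 11363 bp and 14116 bp, and PWWP2B, a chromatin protein, with 3837 bp and 6662 bp. The other genes of the 10 largest losses were RNF224, KIFC2, CCDC57 and R3HDM4, and the 10 differences lay between -4915 bp and -2671 bp. The sign of all 10 was the same under the stricter score and in windows of 10 kb and 100 kb. With equal numbers of top-scoring peaks only the daunorubicin list is cut, so a loss cannot turn in that setting.

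The 10 largest gains near ends lay between 6023 bp and 8885 bp. ITPR1, the inositol trisphosphate receptor that releases calcium from the endoplasmic reticulum, lies on 3p and had 22214 bp with daunorubicin, against 13329 bp without it, over 42 and 25 peaks. Its difference of 8885 bp was 1120 bp with equal numbers of peaks. STIM1, the calcium sensor of the same compartment, lies on 11p and had 20162 bp and 11867 bp, over 36 and 21 peaks. Of the STIM1 peaks, 20 with daunorubicin and 5 without it had no peak in the other library.

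CNOT6, a deadenylase subunit of the CCR4-NOT complex on 5q, had the largest ratio of these genes, 4.35, with 9999 bp and 2299 bp. All 4 untreated peaks of CNOT6 were shared, and 5 of its 9 daunorubicin peaks were not. The widest of the 5 spanned 2941 bp inside the gene (chr5:180554048-180556988, score 58). Over the lower end of CNOT6 a peak of 2009 bp with daunorubicin contained one of 933 bp in untreated cells. The others were PTPRA, a receptor tyrosine phosphatase, TIMP2, a metalloproteinase inhibitor, WDR4, the partner of the tRNA methyltransferase METTL1, SERPINB9, an inhibitor of granzyme B, SNX25, a sorting nexin, CDYL, a chromodomain corepressor, and UIMC1, a ubiquitin-binding subunit of the BRCA1-A complex. PTPRA and CDYL had less marked length with daunorubicin in windows of 10 kb, by -240 bp and -58 bp. At equal numbers of peaks the 10 differences lay between 1120 bp for ITPR1 and 5973 bp for CNOT6.

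CPXM1, whose promoter is printed above, had 10181 bp with daunorubicin, against 3422 bp without it. Of the 13 daunorubicin peaks around CPXM1 8 had no untreated peak, and its 5 untreated peaks were all shared. Next to the promoter peak, 414 bp above the gene, a daunorubicin peak of 1024 bp reached a score of 132 (chr20:2801041-2802064) with no untreated peak. It was among the 10 highest-scoring regions near ends called only with daunorubicin. The highest of these, with a score of 318, lay between genes on 2q (chr2:238777592-238778148), 69937 bp from TWIST2, and the others lay nearest to LOC124901794, LRRFIP1, PRSS41, CELF5, ITPR1, NQO2, ECI2 and SLC6A12, with scores of 107 to 174. Regions called only in untreated cells reached scores of 75 to 178. They lay nearest to KLHDC4, ZFPM1, R3HDM4, BAHCC1, GRAMD4, TGIF1, MUC5B, ADGRD1, TTYH3 and DNAH17. TGIF1, a homeodomain repressor of TGF-beta signalling, had such a region at a gene end (chr18:3449790-3450925, 1136 bp, score 95).

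The highest-scoring peaks were shared at the ends of lowest and of highest ratio, as were nearly all peaks of such scores. In the highest score bin, 3 of 679 daunorubicin peaks and 0 of 514 untreated peaks near ends were unshared. Sharing of these peaks therefore does not set these arms apart. In the 5 arms of lowest ratio with at least 50 untreated peaks (22q, 1p, 10q, 12q and 7p) and the 5 of highest ratio (10p, 20p, 18p, 15q and 6p), the highest-scoring peak of each list overlapped a peak of the other. On 12q this was the same site in both lists, at SFSWAP, a splicing regulator, with chr12:131710670-131711742 for daunorubicin and chr12:131710489-131711888 for untreated cells. On 7p it lay at SNX8, a sorting nexin, on 10p at IDI1, an isopentenyl diphosphate isomerase, on 20p at ZNF343, on 18p at LPIN2, a phosphatidate phosphatase, and on 6p at SERPINB6, a serine protease inhibitor. On 22q, 1p, 10q and 15q the lists differed in their highest site. On 22q LOC124905135 lay nearest to the daunorubicin peak and NCAPH2, a condensin II subunit, at the untreated one. The nearest genes were TTLL10 and SKI on 1p, ECHS1 and MTG1 on 10q, and CHSY1 and LRRK1 on 15q.

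Gene lists are described by counts, beside the 33.4% of marked genes near ends that were shorter with daunorubicin and their median difference of 405 bp. Members of a cluster share peaks, and the lists were chosen with earlier results of these data known, so the counts are descriptions. The alpha-globin locus and erythroid factors had 12 of 13 marked members longer and 1 shorter, with a median difference of 685 bp. NPRL3, a GATOR1 subunit whose introns hold the alpha-globin enhancers, had 15777 bp with daunorubicin, against 13992 bp without it. HBZ, the embryonic zeta-globin gene, differed by 1095 bp, and RHBDF1 and MPG by 1142 bp each. This direction was turned with equal numbers of top-scoring peaks, where 10 of 13 were shorter and NPRL3 differed by -2306 bp (HBZ, RHBDF1 and MPG were also shorter), and in windows of 10 kb, where 7 of 13 were shorter. The share of all marked genes near ends that were shorter also moved with these settings. It was 59.6% with equal numbers, 45.1% under the stricter score, 42.9% in windows of 10 kb and 30.6% in windows of 100 kb.

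The granule proteases and blood signalling genes had 15 of 19 shorter, with a median of -405 bp. PRTN3, proteinase 3 of neutrophil granules, had 9072 bp and 11115 bp. Against the direction of most members, TRAF3, an adaptor that restrains NF-kB signalling, had 4071 bp and 2006 bp and GZMM, granzyme M, 12467 bp and 10802 bp. Shorter members numbered 17 of 18 with equal numbers of top-scoring peaks, 12 of 18 under the stricter score, 10 of 19 in windows of 10 kb and 13 of 19 in windows of 100 kb, beside 59.6%, 45.1%, 42.9% and 30.6% of all marked genes near ends. With equal numbers GZMM and TRAF3 were shorter as well, by -873 bp and -556 bp, and PRTN3 was longer by 97 bp in windows of 10 kb.

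Of 17 telomere maintenance genes 3 lay near an end. TERT, the reverse transcriptase of telomerase, lies 1274 kb from the end of 5p and had 1625 bp with daunorubicin, against 2694 bp without it. At the higher end of TERT a daunorubicin peak of 224 bp lay within an untreated peak of 1174 bp. RTEL1, a helicase that unwinds telomere loops, had 8244 bp and 9683 bp, and NHP2, a protein of the telomerase and H/ACA particles, 6014 bp and 4804 bp. All 3 kept their sign in the 4 other settings tried (equal numbers, stricter score, 10 kb and 100 kb). With equal numbers the losses of TERT and RTEL1 could not turn, since only the daunorubicin list is cut. The difference of NHP2, 1210 bp, was 17 bp with equal numbers. Of 14 members near ends of the families with copies at several chromosome ends, 6 were marked and all 6 were longer, with a median of 471.5 bp. TUBB8, a tubulin of oocytes, had 2243 bp and 1079 bp. The other 8, among them the OR4F olfactory receptors and DUX4, had no marked length in either library. Copies of these families can share reads, so peaks at them are uncertain.

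The other lists divided more evenly. Chromatin and transcription regulators had 13 of 24 longer and 11 shorter. SIRT6, a deacetylase known for its role at telomeric chromatin, had 7175 bp and 3404 bp, and KDM5A, an H3K4 demethylase, 6451 bp and 4271 bp. CREBBP, an acetyltransferase of H3K27 itself, had 6365 bp and 4393 bp, a direction that was turned with equal numbers, under the stricter score and in windows of 10 kb. NELFB, a subunit of the negative elongation factor, had 14521 bp and 16045 bp. Growth signalling and tumour genes had 12 of 23 longer and 11 shorter, among them TRAP1, a mitochondrial chaperone, with 10603 bp and 8138 bp, and RECQL4, a DNA helicase, with 10252 bp and 12426 bp. Respiratory chain and ATP synthase genes had 5 of 9 longer, with NDUFS7, a complex I subunit, at 8229 bp and 9694 bp. Cytosolic ribosomal protein genes had 4 of 10 longer and 6 shorter, with RPS15 at 8173 bp and 9077 bp and RPL35A at 5465 bp and 4216 bp. RPL35A was shorter with daunorubicin under the stricter score, by -442 bp. With equal numbers, shorter members were 16 of 24, 17 of 23, 7 of 9 and 9 of 10 in these 4 lists, beside 59.6% of all marked genes near ends.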

How the data were processed

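H3K27ac and input ChIP-seq were done in K562 with and without daunorubicin, 1 library per condition and target, and groups follow the labels of antibody and treatment. MACS2 2.1.1, Bowtie2 2.3.4.3 and deepTools 3.2.1 are named as tools, and hg19 and hg38 as builds, per the submitters' processing notes. Tool settings, the peak threshold and the role of the inputs were not given in the sources used here. What the authors deposited was a peak list for each library, with a score for every peak whose formula is not stated. Scores were used within a list, except that the stricter score set a common minimum for both. The lists carry sequence names of hg38, and coordinates are on hg38 and counted from 1. Read depth is unknown.

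Gene positions and 300-base promoter windows (250 before to 50 after the start) came from RefSeq tables of GRCh38.p14. Genes were taken by chromosome name alone, so some entries of alternate or unplaced sequences, such as OR8U8 on 11p, may be counted near an end wrongly. The gene table gives no strand, so both ends of a gene were used. The promoter table held windows for 1842 of 2530 protein-coding genes near ends (72.8%), which voids a GC check over those genes. It held no window on chromosome 8, so every promoter result leaves that chromosome out.

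A peak was shared if 1 bp or more of it overlapped a peak of the other library. Inner peaks of chromosomes 1 to 22 were weighted to the 10 score bins and the location at a gene end (1 kb) of the peaks near ends. In the second and last measures the untreated score was used, and in the third the daunorubicin score, since a peak called only with daunorubicin has no untreated score. Shares and ratios carry 95% Wilson intervals, medians binomial order-statistic intervals. With 1 library per condition no test between conditions was made.

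Named genes were the 10 largest gains and 10 largest losses of marked length near ends (skipping neighbours within 100 kb), the nearest gene, at most 100 kb away, of the 10 regions with the highest score in both unshared classes, up to 4 members per list by absolute difference, and the gene nearest the highest-scoring peak of each list in the 5 arms of lowest and the 5 of highest ratio. The members and lists were chosen with earlier results of these data known. AHNAK2 and SHD were named outside the rule after their values were seen.

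Alternatives were other windows from the end (2 and 10 Mb), a stricter score (43 or more, the median of the untreated list) and equal numbers of peaks. For equal numbers the daunorubicin list was cut to its 38626 top-scoring peaks, and the untreated list, of that size, was kept whole. Further ones were other overlap, gene-end and matching rules, chromosomes left out, peaks on input peaks removed, and gene windows of 10 kb and 100 kb. Overlap, marked length and matching were tested on simulated data. Python 3.11.15, numpy 2.4.6, pandas 2.3.3, scipy 1.17.1 and matplotlib 3.10.9 were used.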

Additional observations from a re-analysis of the deposited data

How the results depend on the processing

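No paired analysis was possible because each condition had 1 library. For the 5 summary results, none of 74 alternative values changed direction, and 50 moved little. These values are not separate checks, since all re-cut the same 2 lists. Removing peaks on input peaks, for example, left the peaks near ends as they were. The ratio of ratios (0.801) was 0.757 in windows of 2 Mb, 0.837 in windows of 10 Mb and 0.758 under the stricter score. The excess of untreated peaks with no daunorubicin peak (4.69 points) was 6.68 with equal numbers of top-scoring peaks and 2.36 with a reciprocal overlap of 50%. The deficit of daunorubicin peaks with no untreated peak (-5.91 points) was -7.64 in windows of 2 Mb, -8.65 under the stricter score and -4.05 with equal numbers. The median marked-length difference of genes near ends minus that of inner genes (-1029 bp) was -1078 bp at 2 Mb, -866 bp at 10 Mb, -735.5 bp with equal numbers, -804 bp at the stricter score, -1071.5 bp without chromosome 19, -308 bp in gene windows of 10 kb and -1901 bp in those of 100 kb. The log2 relative score (-0.21) was -0.27 at 2 Mb, -0.15 at 10 Mb, and -0.17 both under the stricter score and with equal numbers. On promoter peaks matched on score and GC, an alternative chosen after seeing the data, the second and last results were 1.44 points and -0.15. With further matching rules of that kind, the second result was 3.62 points with location matched alone, and the third was -7.72 points with location matched alone and -3.73 points on promoter peaks matched on score. The cause of these shifts was not tested. Leaving out each arm in turn, also chosen after seeing the data, gave 0.794 to 0.808, 4.37 to 4.98 points, -6.23 to -5.67 points, -1049 to -992 bp and -0.22 to -0.20. Matching genes on untreated marked length and giving gene lists and named genes by setting were likewise chosen after seeing the data. With 1 library per condition, variation between cultures and the effect of depth on peak calls cannot be told apart from the effect of the drug.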
